A study of Vitis vinifera with 23 samples.

Results

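The genes described here were expressed in green Sauvignon blanc berries at EL31 and were at least 3 log2 units lower at EL33 in the control berries. They were chosen from the control samples only, as genes with at least 5 FPKM (fragments mapped per kilobase of transcript, scaled to the size of the library) in each of the 3 control EL31 samples and a group mean at EL31 at least 3 log2 units above that at EL33, on the scale log2(FPKM + 0.1). The rule found 279 of the 29970 genes in the table, or 1.99% of the 14012 genes with at least 5 FPKM in each control EL31 sample. Since the control values at EL31 and EL33 chose the genes, the control fall is given as a description and is not tested.

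Whole berries, without their seeds, came from vines whose leaves and lateral shoots had been taken away around the bunches (exposed) and from neighbouring panels of vines that kept them (control, shaded). They were sampled at EL31 (pea-size, green), EL33 (hard, green), EL34 (véraison, the start of softening, named EL35 in the study's text) and EL38 (ripe). All berries were of 1 cultivar and 1 vineyard, and each sample is a biological replicate, a panel of adjacent vines, per the study's methods. Exposed berries had 3 samples at each of EL31, EL33, EL34 and EL38, and control berries had 3 samples at each of EL31, EL33 and EL34 and 2 at EL38, where the authors left out 1 sample as an outlier.

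At EL31 a berry is still close to fruit set. Its cells have recently divided and are beginning to enlarge, its surface is being covered with cutin and wax, and its skin and seeds make tannins. Phenylpropanoid metabolism starts from phenylalanine and supplies hydroxycinnamic acids, lignin and, through a side branch, flavonoids and tannins. Many genes of this early programme are known to be turned down before the berry softens.

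The labels were checked on genes of stage and treatment. The light-harvesting gene LHCA2 (Vv01s0010g03620) averaged 1445 and 774 FPKM in exposed and control berries at EL31, and 23.3 and 28.7 FPKM in exposed and control berries at EL38. Flavonol synthase (Vv18s0001g03470), which responds to light in berry skin, averaged 19.5 and 0.736 FPKM in exposed and control berries at EL31. Sequencing depth, estimated relative to the median sample, ranged from 0.701 to 2.62, and the number of reads behind a single FPKM value is unknown. The summed level of 5 flower and pollen genes, chosen by their names, was 80.1 to 102 FPKM in exposed EL33 samples, against 178 to 190 FPKM in exposed EL31 samples, and its part in the falls below was not tested. In whole berries, fewer cells of a type and less RNA per cell cannot be told apart.

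Of the 279 genes, 22 carry a named function in the study's own gene lists, and the other 257 are given here by identifier only. Of the 24 found in those lists at all, 18 were there because the study had picked them for their response to exposure in these same samples, so their exposure effects are not independent evidence.

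The medians of the members' group means followed the berry through its 4 stages. They were 16.4 and 21.8 FPKM in exposed and control berries at EL31, 0.968 and 1.12 FPKM at EL33, 1.01 and 0.897 FPKM at EL34, and 0.209 and 0.306 FPKM at EL38. The median of all genes tested moved far less, and was 18.8 FPKM in both groups at EL31, against 14.9 and 15.3 FPKM in exposed and control berries at EL38.

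**Figure D1:**
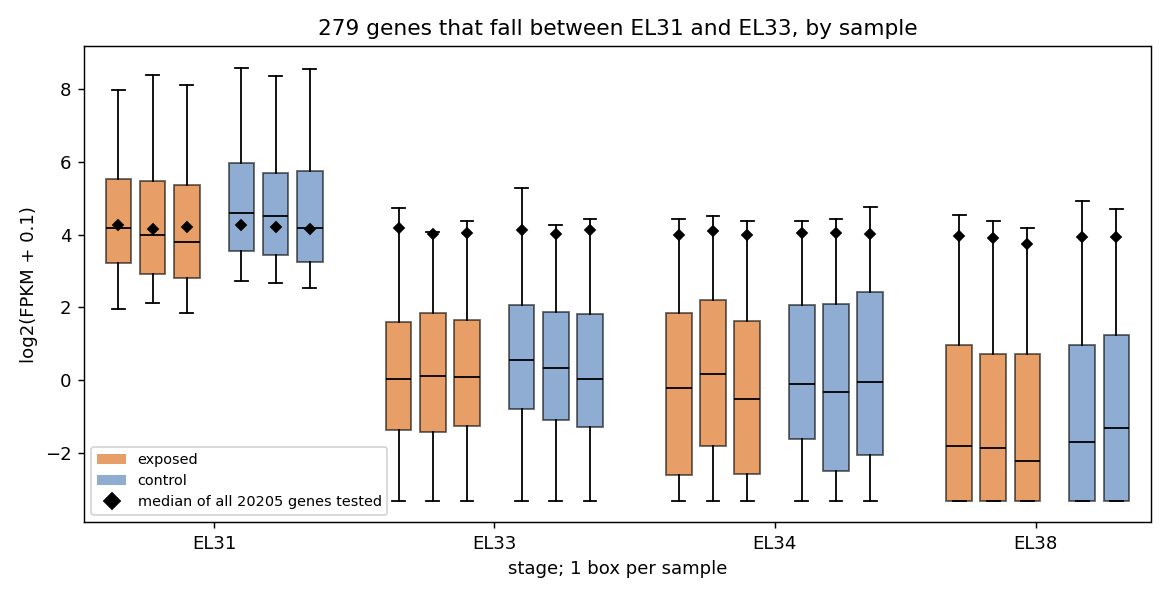
Level of the 279 genes on the log2(FPKM + 0.1) scale in each of the 23 samples, with exposed samples left of control samples at each stage (box, quartiles; whiskers, 5th to 95th percentile; diamond, median of all 20205 genes tested). The EL31 boxes stand around the diamonds in all 6 samples, and the boxes of the later stages lie below them.

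The word off applied to only part of the genes. At EL33, 143 of the 279 had a group mean below 1 FPKM in exposed berries and 131 in control berries, and 7 and 8 were listed at 0 in every sample of exposed and control berries. In control berries 101 genes stood between 1 and 5 FPKM and 47 still had 5 FPKM or more. Across EL33, EL34 and EL38, 66 genes (23.7%) remained below 1 FPKM in all 6 groups.

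The control fall had a median of 3.94 log2 units and reached 15.3. Just inside the limit of 3 stood Vv07s0031g02340, Vv08s0007g03240 and Vv06s0061g00680, at 3.001, 3.004 and 3.013, and just outside stood Vv10s0003g05420, Vv18s0001g03670 and Vv17s0000g06730, at 2.997, 2.995 and 2.979. At the limit of 5 FPKM, the lowest control EL31 samples of Vv00s0615g00020, Vv10s0003g03440 and Vv18s0001g02720 were 5.05, 5.09 and 5.17 FPKM, and those of Vv06s0009g00480, Vv18s0001g08590 and Vv07s0005g06110, which were left out, were 4.92, 4.92 and 4.84 FPKM. The genes on either side of both limits were thus close to each other in value.

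Most of the members also fell in exposed berries, which the rule did not use. All 279 genes passed the filter on low values (some group averaging 1 FPKM or more), and limma called 256 of them lower at EL33 than at EL31 in exposed berries, at an adjusted p of at most 0.05 over all 20205 genes tested. That is 91.8% of the members, against 20.6% of all genes tested. No member was called higher, against 11.7% of all genes tested, and no member passed an unadjusted p of 0.05 in that direction. The median log2 change was -3.97 for the members and -0.07 for all genes tested. The exposed EL31 samples were all above the exposed EL33 samples for 265 of the 279 genes, a count that was not made over all genes tested.

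Applied to the exposed samples, the rule found 268 genes, of which 194 were shared. These were 69.5% of the list from control berries and 72.4% of the list from exposed berries. Members fell by at least 3 log2 units in exposed berries in 225 cases and by at least 2 in 265, and these counts were not made over all genes tested. Whether the fall differed between exposed and control berries was not tested, since the control fall chose the genes.

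**Figure D2:**
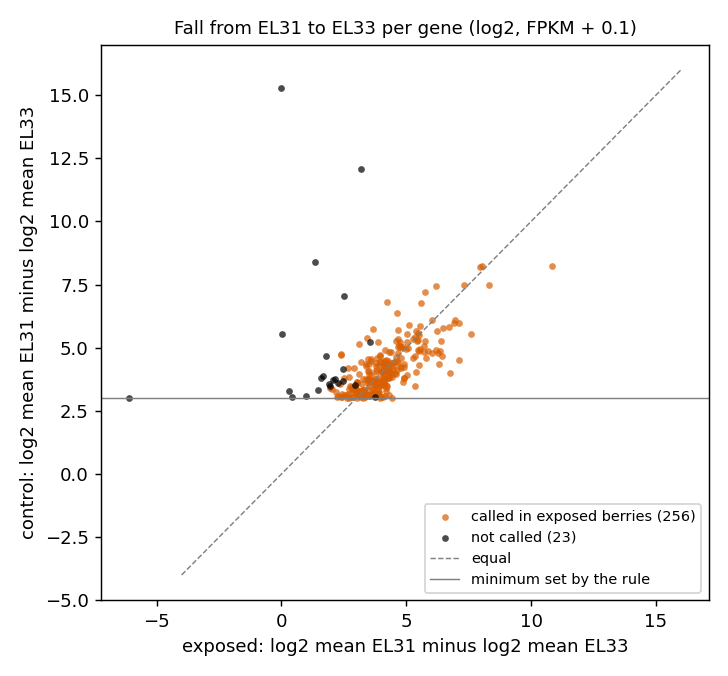
Fall from EL31 to EL33 of each of the 279 genes as the difference of log2 group means (FPKM + 0.1), exposed berries across and control berries upward; the solid line is the minimum that the rule set for control berries. The 256 genes called in exposed berries lie along the dashed line of equal falls, and the 23 that were not called are mostly to its left.

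The highest member at EL31 was Vv01s0011g05170, without a named function. It had 2524, 659 and 1116 FPKM in exposed EL33 samples, against 19163, 35995 and 17660 FPKM in exposed EL31 samples. Its log2 change was -4.23 (SE 0.67, limma, adjusted p = 9.1e-05). The gene kept a high level after its fall, with 648, 1792 and 2208 FPKM in exposed EL34 samples, against 523, 2192 and 915 FPKM in control EL34 samples, and it ended at 11.7 to 54.4 FPKM in exposed EL38 samples, against 50.6 and 65.1 FPKM in control EL38 samples. Vv01s0011g05190, close to it in the gene numbering, stood 3rd, with 278, 209 and 257 FPKM in exposed EL33 samples, against 1975, 1740 and 2024 FPKM in exposed EL31 samples. Neither gene was called for exposure at any stage.

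Other abundant members dropped further. Vv12s0059g01830, which has no match in the annotation, had 4.52, 3.59 and 8.39 FPKM in exposed EL33 samples, against 1020, 1076 and 1110 FPKM in exposed EL31 samples (log2 change -7.67, SE 0.83, limma, adjusted p = 1.5e-06). Vv08s0007g07720 had 1.28, 7.25 and 5.87 FPKM in exposed EL33 samples, against 653, 719 and 651 FPKM in exposed EL31 samples. Vv02s0154g00320 averaged 28.8 and 2456 FPKM in exposed EL33 and EL31 samples. In all 3 genes the EL33 samples were far below the EL31 samples, without overlap.

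The other 5 of the 10 highest members were Vv06s0004g07680, Vv14s0108g01020, Vv03s0091g01010, Vv18s0001g09400 and Vv08s0007g00330, and each was called lower at EL33 in exposed berries, with log2 changes of -3.79, -5.02, -3.97, -3.90 and -3.55. They parted afterwards. Vv14s0108g01020 rose again to 381, 288 and 246 FPKM in exposed EL34 samples, against 44.5, 9.40 and 38.5 FPKM in exposed EL33 samples (log2 change 3.56, SE 0.41, limma, adjusted p = 2.8e-06). At EL38 it had 25.8, 20.4 and 11.4 FPKM in exposed samples, against 71.5 and 51.8 FPKM in control samples, and was called lower (log2 effect -1.74, SE 0.46, limma, adjusted p = 0.038), a call lost when the range of the sample numbers in the labels (fifties or sixties) was fitted as a block (the number-range block). Vv03s0091g01010 went on down, to 0.995, 3.69 and 0.767 FPKM in exposed EL34 samples, against 37.0, 47.9 and 53.0 FPKM in exposed EL33 samples.

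The deepest called falls in exposed berries belonged to genes that reached 0 or nearly 0. Vv17s0000g06720 was listed at 0 in all 3 exposed EL33 samples, against 63.3, 422 and 69.5 FPKM in exposed EL31 samples, and no fold is given for it. Vv09s0002g05320 had 0.0677, 0.0806 and 0.0523 FPKM in exposed EL33 samples, against 62.4, 42.2 and 53.7 FPKM in exposed EL31 samples (log2 change -8.29, SE 0.43, limma, adjusted p = 2.7e-10). Vv06s0080g00760 averaged 0.623 and 180 FPKM in exposed EL33 and EL31 samples.

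Of the 23 members not called in exposed berries, 20 had at least 1 sample of exposed EL31, or of exposed or control EL33, listed at 0. A 0 at EL33 can also be part of a complete fall. Of the 224 members with no 0 in the exposed EL31 and EL33 samples, 215 were called. Vv09s0002g06190 had 20.4, 0 and 0 FPKM in exposed EL33 samples, against 0 in all 3 exposed EL31 samples. Vv11s0118g00520 had 34.5, 7.13 and 10.8 FPKM in exposed EL33 samples, against 29.2, 34.6 and 0 FPKM in exposed EL31 samples, and Vv18s0001g12920 had 9.69, 2.26 and 2.69 FPKM, against 17.2, 12.1 and 0 FPKM. These 3 were the members with a fitted change above 0, and an FPKM of 0 between high replicates can be a failed estimate.

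Several members with a named function belong to phenylpropanoid metabolism, a pathway whose genes the study listed separately, and nothing is read from their number. In the list drawn up for this pathway by name, 82 genes were tested and 5 were members (6.10%, against 1.38% of all genes tested), and 33 of the 82 were called lower (40.2%, against 20.6% of all genes tested) and 13 higher (15.9%, against 11.7%) at EL33 than at EL31 in exposed berries. For exposure, 9 of the 82 were called higher at EL31 (11.0%, against 3.80% of all genes tested), 8 at EL33 (9.76%, against 2.54%), 8 at EL34 (9.76%, against 2.17%) and 6 at EL38 (7.32%, against 1.52%). At EL31 1 was called lower (1.22%, against 0.881%), at EL38 8 were (9.76%, against 3.26%), and at EL33 and EL34 none was, against 0.950% and 1.16% of all genes tested. The 5 members of the list were a ligase, a hydroxylase, a methyltransferase, a laccase and ANL2, and the PAL genes below were not in it. This and every other list here was drawn by name from genes annotated in the study's own gene lists. The study had picked part of those genes in these same samples, for response to exposure or for differing between green and ripening berries. The shares called in such lists are thus not independent evidence.

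PAL (phenylalanine ammonia lyase) makes cinnamic acid from phenylalanine and opens the pathway. Of the 3 tested genes annotated as PAL, 2 were members. Vv13s0019g04460 had 4.39, 4.63 and 5.40 FPKM in exposed EL33 samples, against 46.6, 47.5 and 48.3 FPKM in exposed EL31 samples. Its log2 change was -3.28 (SE 0.18, limma, adjusted p = 4.3e-10). The gene returned, and by EL38 it was above its EL31 level in exposed berries.

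At EL38 Vv13s0019g04460 had 62.6, 56.6 and 64.0 FPKM in exposed samples, against 42.4 and 25.9 FPKM in control samples, without overlap, and the log2 exposure effect was 0.88 (SE 0.20, limma, adjusted p = 0.016), a call that was lost with the number-range block. At EL34 it had 11.0, 10.2 and 13.2 FPKM in exposed samples, against 6.57, 7.57 and 7.30 FPKM in control samples (log2 effect 0.67, SE 0.18, limma, adjusted p = 0.047), a call that was lost with the number-range block and in 19 of the 23 fits without 1 sample. The other member, Vv08s0040g01710, also rose between EL34 and EL38, by 2.04 log2 units in exposed berries and 3.91 in control berries. It had 23.5, 9.94 and 16.3 FPKM in exposed EL38 samples, against 30.5 and 50.1 FPKM in control EL38 samples, and this difference did not pass the test (log2 effect -1.32, SE 0.46, limma, adjusted p = 0.12).

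The 3rd PAL gene, Vv06s0004g02620, was not a member. It averaged 8.11 and 45.3 FPKM in exposed EL33 and EL31 samples and 4.92 and 2.04 FPKM in exposed and control EL38 samples, where it was called higher in exposed berries (log2 effect 1.21, limma, adjusted p = 0.0078). All 3 PAL genes were called lower at EL33 than at EL31 in exposed berries, and between EL34 and EL38 both members rose in exposed berries while this gene fell (log2 change -1.05, adjusted p = 0.00052).

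The p-coumaroyl shikimate 3'-hydroxylase Vv08s0040g00780, which adds the hydroxyl group on the way to caffeic units of lignin, was the member raised by exposure at the most stages. At EL33 it had 11.7, 12.02 and 11.9 FPKM in exposed samples, against 7.80, 7.41 and 8.97 FPKM in control samples (log2 effect 0.56, SE 0.13, limma, adjusted p = 0.024). At EL34 it had 14.4, 13.3 and 15.4 FPKM in exposed samples, against 7.66, 7.10 and 9.16 FPKM in control samples (log2 effect 0.85, SE 0.13, adjusted p = 0.00086). At EL38 the values were 12.04, 11.7 and 11.01 FPKM in exposed samples, against 7.44 and 7.44 FPKM in control samples (log2 effect 0.63, SE 0.15, adjusted p = 0.018), a call lost with the number-range block. The groups did not overlap at these 3 stages, and at EL31, with 113, 80.7 and 84.2 FPKM in exposed samples against 91.7, 78.5 and 67.7 FPKM in control samples, they did.

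Another 2 enzymes of the pathway fell at EL33 without an exposure call. The ligase 4-coumarate-CoA ligase 2 (Vv11s0052g01090), which activates hydroxycinnamic acids, averaged 6.005 and 78.95 FPKM in exposed EL33 and EL31 samples. Caffeoyl-CoA O-methyltransferase (Vv03s0063g00140), which makes feruloyl units for lignin, averaged 4.90 and 27.0 FPKM. Their log2 changes were -3.69 (SE 0.27) and -2.37 (SE 0.41), with limma adjusted p of 1.6e-08 and 0.0002.

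The laccase Vv18s0164g00100, of a family known from Arabidopsis to polymerise lignin units, had 2.99, 0.0389 and 2.81 FPKM in exposed EL33 samples, against 43.4, 39.5 and 30.4 FPKM in exposed EL31 samples. By EL34 it stood at 97.6, 67.4 and 106 FPKM in exposed samples, against 87.4, 94.9 and 111 FPKM in control samples. The rise from EL33 to EL34 in exposed berries was 6.37 log2 units (SE 0.75, limma, adjusted p = 3.3e-06), the largest called rise of any member at that step. At EL38 the exposed samples, at 17.7, 18.8 and 12.7 FPKM, were all below the control samples, at 49.0 and 56.8 FPKM, and the difference did not pass the test (adjusted p = 0.31).

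MybPA2 (Vv11s0016g01320), a regulator of tannin synthesis in grapevine, had 3.07, 1.56 and 4.09 FPKM in exposed EL33 samples, against 37.9, 46.1 and 41.0 FPKM in exposed EL31 samples (log2 change -3.89, SE 0.29, limma, adjusted p = 1.7e-08). It came back in part, to 5.43, 7.14 and 6.19 FPKM in exposed EL34 samples, against 5.98, 6.63 and 6.86 FPKM in control EL34 samples. At EL38 it was listed at 0 in 2 of 3 exposed samples and in both control samples. No exposure effect was called for it.

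**Figure D3:**
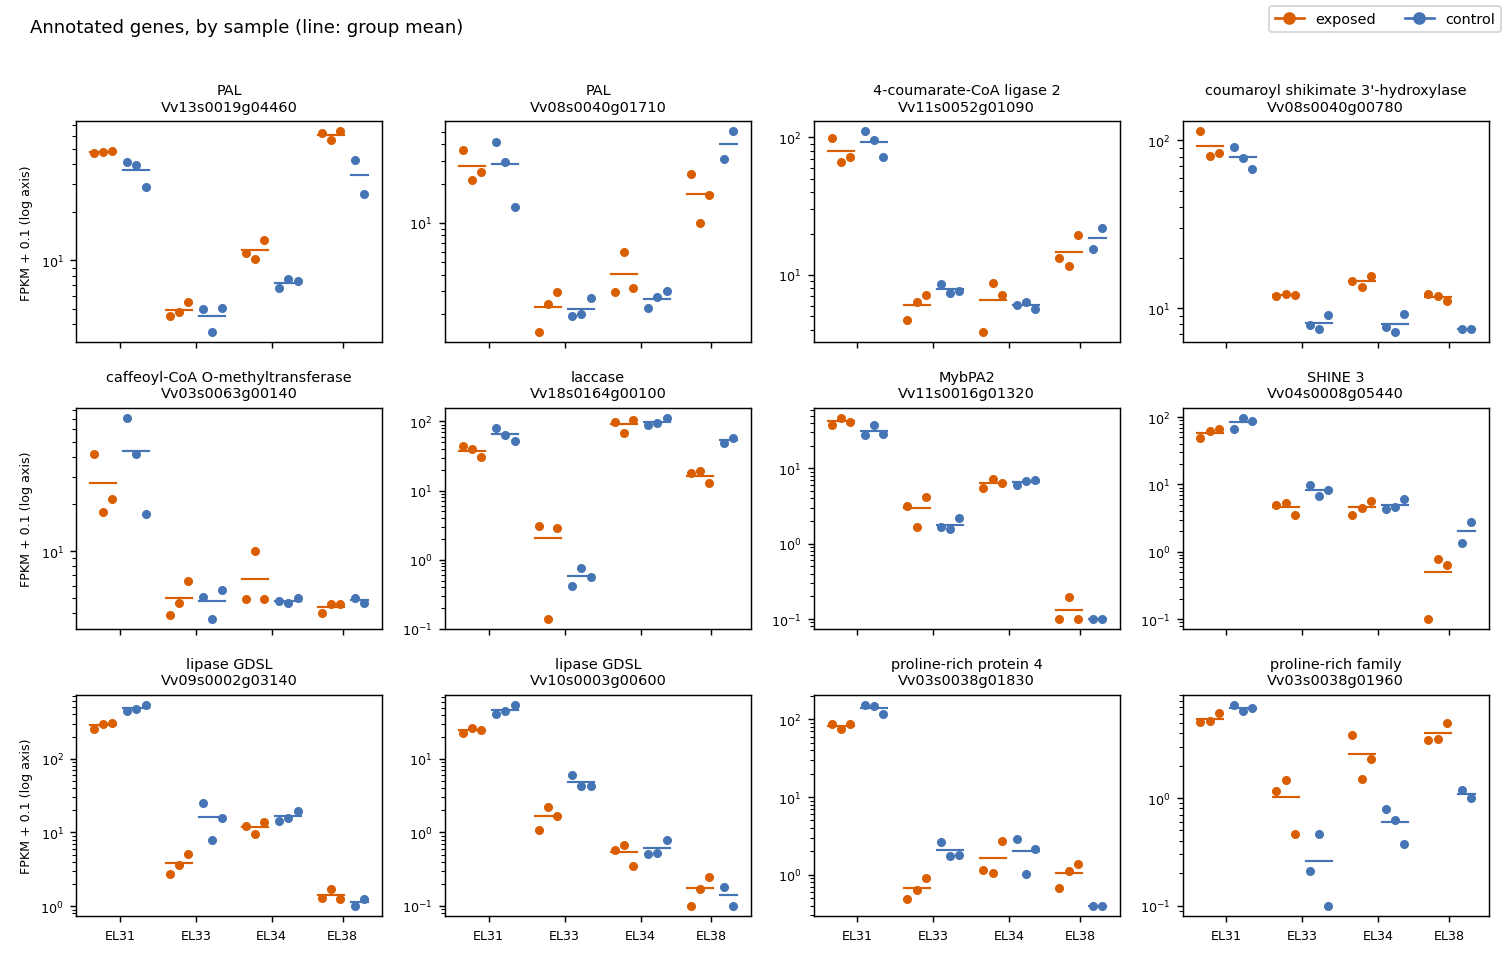
FPKM + 0.1 on a log axis of 12 members with a named function, in each sample, with exposed samples left of control samples at each stage and a line at the group mean. The shikimate 3'-hydroxylase is higher in exposed samples from EL33 on, both GDSL lipases are lower in exposed samples at EL31 and EL33, and the laccase regains its EL31 level at EL34.

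Both GDSL lipases among the members were called lower in exposed berries at EL33. In the list of cuticle and lipid genes, 36 were tested and 2 were members, both of the GDSL family, which in tomato includes the enzyme that builds cutin. At EL33 the list had 4 genes called higher and 2 called lower for exposure (11.1% and 5.56%, against 2.54% and 0.950% of all genes tested). The 2 lower ones were these members. Vv09s0002g03140 had 2.64, 3.48 and 5.02 FPKM in exposed EL33 samples, against 24.99, 7.86 and 15.6 FPKM in control EL33 samples (log2 effect -1.99, SE 0.31, limma, adjusted p = 0.0016). Vv10s0003g00600 had 0.974, 2.11 and 1.59 FPKM in exposed samples, against 6.03, 4.13 and 4.23 FPKM in control samples (log2 effect -1.60, SE 0.35, adjusted p = 0.016).

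At EL31 both lipases were also lower in every exposed sample than in any control sample, with 251.9, 293 and 302 FPKM in exposed samples against 440, 471 and 535 FPKM in control samples for Vv09s0002g03140, but neither passed the test at that stage (adjusted p = 0.22 and 0.18). SHINE 3 (Vv04s0008g05440), whose relatives in Arabidopsis switch on wax and cutin genes, had 48.9, 61.4 and 65.6 FPKM in exposed EL31 samples, against 66.6, 96.3 and 87.0 FPKM in control EL31 samples. At EL38 it had 0, 0.688 and 0.528 FPKM in exposed samples, against 1.24 and 2.63 FPKM in control samples, where it was called lower (log2 effect -2.38, SE 0.58, limma, adjusted p = 0.024).

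The members annotated as proline-rich proteins, which are in no list used here, were called in opposite directions at EL33. PROLINE-RICH PROTEIN 4 (Vv03s0038g01830), of a family of wall proteins, had 0.386, 0.541 and 0.797 FPKM in exposed EL33 samples, against 2.56, 1.63 and 1.71 FPKM in control EL33 samples (log2 effect -1.63, SE 0.38, limma, adjusted p = 0.023), a call lost with the number-range block. Its relative Vv03s0038g01960 had 1.06, 1.37 and 0.366 FPKM in exposed EL33 samples, against 0.112, 0.367 and 0 FPKM in control EL33 samples (log2 effect 2.11, SE 0.49, adjusted p = 0.022). The relative was called higher at EL34 too, with 3.74, 1.41 and 2.22 FPKM in exposed samples against 0.698, 0.528 and 0.277 FPKM in control samples.

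The alpha-expansin 10 precursor Vv06s0004g07970 was the 1 member among 62 tested genes of the cell wall and expansion list. Of the 62, 8 were called lower and 18 higher at EL33 than at EL31 in exposed berries (12.9% and 29.0%, against 20.6% and 11.7% of all genes tested). For exposure the list had 1 gene called lower and 0 higher at EL33 (1.61% and 0%, against 0.950% and 2.54% of all genes tested). At EL38 it had 10 called lower and 1 higher (16.1% and 1.61%, against 3.26% and 1.52%). Expansins loosen the wall for growth and softening. This one averaged 0.186 and 7.27 FPKM in exposed EL33 and EL31 samples and had 2.52, 1.92 and 1.64 FPKM in exposed EL34 samples, against 1.87, 1.28 and 2.49 FPKM in control EL34 samples. At EL38 it had 0.236, 0.452 and 0.120 FPKM in exposed samples, against 1.36 and 1.47 FPKM in control samples (log2 effect -2.13, SE 0.38, limma, adjusted p = 0.0035), a call lost with the number-range block.

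Regulators among the members fell at EL33 and differed later. The bHLH gene Vv01s0026g00350 was the most abundant, with 6.37, 14.2 and 10.9 FPKM in exposed EL33 samples, against 208, 202 and 164.1 FPKM in exposed EL31 samples. HB13 (Vv14s0108g00390), a homeodomain-leucine zipper factor, had 0.542, 0.192 and 0.310 FPKM in exposed EL38 samples, against 1.62 and 1.77 FPKM in control EL38 samples (log2 effect -2.08, SE 0.33, limma, adjusted p = 0.002), a call lost with the number-range block. ANL2 (Vv09s0018g02100), a homeodomain gene of the epidermis in Arabidopsis, was listed at 0 in all 6 EL34 samples. In the list of transcription factors, 249 genes were tested and 4 were members. At EL33, 32 were called lower and 67 higher than at EL31 in exposed berries (12.9% and 26.9%, against 20.6% and 11.7% of all genes tested).

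Hormone genes gave 2 members of 119 tested, SHINE 3 and the GASA-like gene Vv18s0072g01110, of a family responsive to gibberellin. The GASA-like gene averaged 8.50 and 85.6 FPKM in exposed EL33 and EL31 samples and was listed at 0 in the 3 exposed EL38 samples and in 1 of 2 control EL38 samples. ARR9 (Vv18s0001g02540), a type-A response regulator that is induced by cytokinin and damps its signal in Arabidopsis, averaged 1.77 and 29.5 FPKM in exposed EL33 and EL31 samples. Both were called lower at EL33, and neither was called for exposure at any stage.

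The remaining named members were single genes of other functions. The lists of transport, of redox enzymes and of receptor kinases and defence held 195, 173 and 413 tested genes with 1 member each. These members were TIP4;1, the FAD linked oxidase and TOM22 homolog 2. The last matched on the word receptor and is neither a receptor kinase nor a defence gene. In exposed berries 26, 39 and 76 genes of these lists were called lower at EL33 than at EL31. Those were 13.3%, 22.5% and 18.4% of the lists, against 20.6% of all genes tested. Called higher were 39, 36 and 64 genes, in each list a larger share than the 11.7% of all genes tested. The tonoplast aquaporin TIP4;1 (Vv04s0008g03550), a water channel of the vacuole, had 3.58, 1.74 and 2.58 FPKM in exposed EL34 samples, against 10.2, 10.02 and 6.72 FPKM in control EL34 samples (log2 effect -1.77, SE 0.41, limma, adjusted p = 0.023). TOM22 homolog 2 (Vv05s0049g01870), part of the mitochondrial protein import complex, had 1.93, 1.75 and 1.65 FPKM in exposed EL34 samples and was listed at 0 in the 3 control EL34 samples. The FAD linked oxidase Vv11s0016g02110 had 0.560, 0.353 and 0.196 FPKM in exposed EL38 samples, against 1.59 and 2.18 FPKM in control EL38 samples (log2 effect -2.14, SE 0.30, adjusted p = 0.00077), a call lost with the number-range block. IQD10 (Vv19s0014g01690), a calmodulin-binding protein, averaged 0.225 and 14.7 FPKM in exposed EL33 and EL31 samples and had no exposure call.

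None of the 46 tested genes of cell division and replication, the 57 of photosynthesis or the 94 heat shock and chaperone genes was a member. This cannot show that such genes are absent from the members, since 257 members have no named function and could not enter these lists. Part of the listed genes had been picked for differing between green berries (EL31 and EL33 together) and ripening berries. No annotated member was among the genes picked in that way. In the photosynthesis list 39 genes were called lower at EL33 than at EL31 in exposed berries and 2 were called higher (68.4% and 3.51%, against 20.6% and 11.7% of all genes tested).

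Exposure was then compared at each stage over all members. Of the 279 genes, 228 were called at no stage, 51 at 1 stage or more, 13 at 2 or more and 2 at 3. These counts were not made over all genes tested. The 4 comparisons share no samples with each other, but they share 1 estimate of spread. Label numbers also recur from stage to stage, and whether they mark the same vine panels was not tested. Calls of a gene at several stages may therefore not be independent. The comparisons at EL31 and EL33 contain the control samples that chose the genes. This tilts the members towards low exposed values at EL31 and towards high ones at EL33.

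At EL31 limma called 12 members lower (4.30%) and 0 higher in exposed berries, against 0.881% and 3.80% of all genes tested. At an unadjusted p of 0.05, 37 were lower and 1 was higher, counts that were not made over all genes tested. The median log2 effect was -0.40 for the members and -0.03 for all genes tested. Of the 279 genes, 243 were below 0 (87.1%, against 55.4% of all genes tested). With genes chosen in exposed berries instead, which tilts the effect the other way, the median was -0.22 over 268 genes, 194 of them below 0, with 5 called lower and 1 higher.

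At EL33, 21 members were called lower (7.53%) and 3 higher (1.08%), against 0.950% and 2.54% of all genes tested. The median log2 effect was -0.34, against -0.02 for all genes tested. Of the 279 genes, 183 were below 0 (65.6%, against 52.8% of all genes tested). The rule favoured genes low in these same control EL33 samples, so these values are given as a description only. With genes chosen in exposed berries the median was -0.59, but that choice favours low exposed values at EL33 and so tilts the effect downward. Of the 21 lower genes, 9 had group means below 1 FPKM in both groups.

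At EL34, 7 members were called lower (2.51%) and 7 higher (2.51%), against 1.16% and 2.17% of all genes tested. The median effect was -0.08, and 157 of the 279 were below 0 (56.3%, against 50.9% of all genes tested). Quantile normalization gave 1 lower and 6 higher. At EL38, 12 were called lower (4.30%) and 4 higher (1.43%), against 3.26% and 1.52% of all genes tested, and the median effect was -0.11, or -0.29 without the 83 members with a group listed at 0. Quantile normalization gave 8 lower and 6 higher. These shares were near those of all genes in both directions at EL38 and in the higher direction at EL34. Beside the EL34 result stands the summed level of 33 genes with seed names, 2091 to 2996 FPKM in exposed samples against 1957 to 2088 FPKM in control samples. At EL38 its order was the other way, with 1194 to 1268 FPKM in exposed samples against 1298 to 1413 FPKM in control samples. At EL31 and EL33 the groups overlapped in it, and its part was not tested at any stage.

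**Figure D4:**
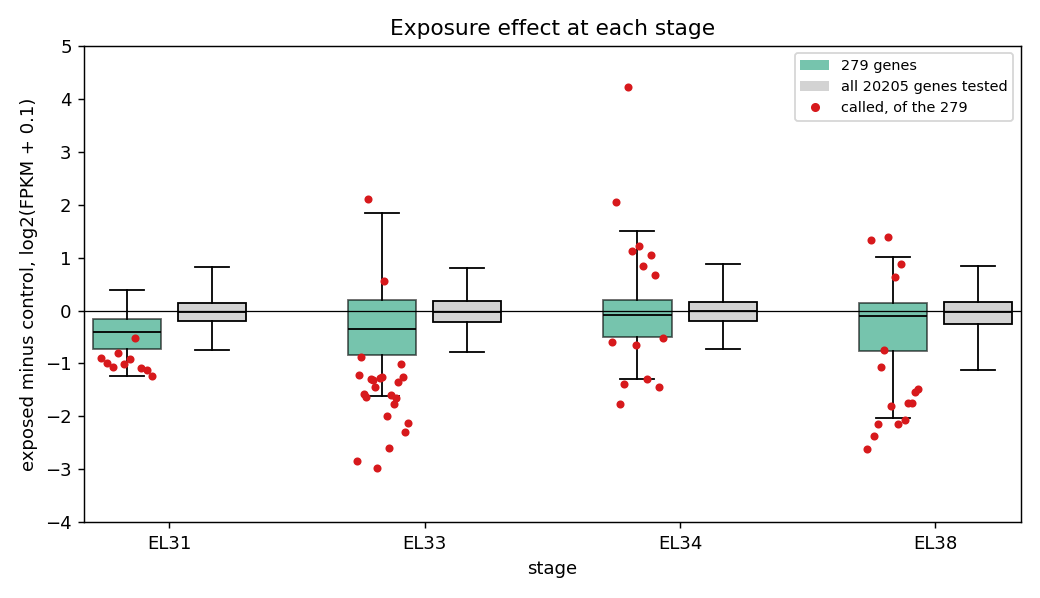
Exposed minus control on the log2(FPKM + 0.1) scale at each stage for the 279 genes (green) and for all 20205 genes tested (grey); boxes show quartiles and whiskers the 5th to 95th percentile, and red points are called members, of which 3 lie beyond the axis. The green boxes lie below 0 at EL31 and mostly below 0 at EL33, and the red points fall on both sides at EL34.

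The calls depended on the fit. With only the samples of the comparison in the fit, 27, 1, 1 and 3 members were called at EL31, EL33, EL34 and EL38, against 12, 24, 14 and 16 with the spread shared over all samples. Samples carry numbers in the fifties or the sixties in their labels, and with that range as a block the counts were 8, 20, 5 and 3, of which 8, 17, 5 and 2 were among the calls without it. At EL38 both control samples carry numbers in the fifties and 2 of 3 exposed samples numbers in the sixties, and the 2 calls kept were those of SHINE 3 and Vv01s0026g00570. None of the 3 members called at EL38 with only the samples of that comparison was among the 16.

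Of the 12 genes lowered at EL31, 10 were above 0 in both groups and had log2 effects of -1.23 to -0.51. Vv02s0025g03320, without a named function, was called lower at 3 stages in succession. At EL31 it had 47.3, 49.8 and 50.8 FPKM in exposed samples, against 87.9, 108 and 99.5 FPKM in control samples (log2 effect -0.99, SE 0.15, limma, adjusted p = 0.00064). At EL33 it had 0.543, 0.494 and 0.620 FPKM in exposed samples, against 1.91, 1.72 and 1.90 FPKM in control samples (log2 effect -1.58, SE 0.15, adjusted p = 9.2e-05).

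At EL34 Vv02s0025g03320 had 1.82, 1.76 and 1.52 FPKM in exposed samples, against 2.58, 2.299 and 3.03 FPKM in control samples (log2 effect -0.60, SE 0.15, limma, adjusted p = 0.038). At EL38 the groups met, with 11.2, 6.82 and 9.14 FPKM in exposed samples against 11.6 and 10.2 FPKM in control samples. Its replicates were tight at the first 3 stages, and the groups did not overlap there.

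Besides this gene, 2 others were lower at both EL31 and EL33. Vv03s0063g01880 had 6.59, 8.79 and 10.9 FPKM in exposed EL33 samples, against 22.8, 20.7 and 20.5 FPKM in control EL33 samples (log2 effect -1.30, SE 0.19, limma, adjusted p = 0.0012). Vv02s0025g02620 had 2.16, 1.01 and 1.38 FPKM in exposed EL33 samples, against 2.83, 2.71 and 2.66 FPKM in control EL33 samples (log2 effect -0.87, SE 0.22, adjusted p = 0.036). At EL38 neither was called.

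The largest called effects at EL31 came from genes listed at 0 in 1 group. At EL31 Vv16s0098g01120 was listed at 0 in the 3 exposed samples, against 2367, 5666 and 3775 FPKM in control samples, and at EL38 it was listed at 0 in the 3 exposed samples, against 3810 and 0 FPKM in control samples. Every other sample was at 0. Vv09s0002g06190 was at 0 in the 3 exposed EL31 samples, against 39.9, 9.32 and 42.6 FPKM in control EL31 samples.

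Among called genes above 0 throughout EL31, the largest decrease was that of Vv17s0000g03550, with 2.27, 2.55 and 2.72 FPKM in exposed samples, against 5.41, 6.21 and 6.51 FPKM in control samples (log2 effect -1.23, SE 0.31, limma, adjusted p = 0.028), a call lost with the number-range block. At EL33 the largest decreases among the called members were near the floor. Vv08s0007g00950 was listed at 0 in the 3 exposed samples, against 0.794, 0.288 and 1.32 FPKM in control samples, and Vv00s2032g00010 likewise, against 0.531, 0.562 and 0.794 FPKM. Vv09s0002g06750 had 0, 0 and 0.110 FPKM in exposed samples, against 0.772, 0.595 and 0.673 FPKM in control samples.

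The largest increase among the members called at EL33 was that of Vv00s0480g00070, with 45.9, 20.8 and 23.4 FPKM in exposed samples, against 0, 15.9 and 0 FPKM in control samples. At EL34 Vv07s0005g02440 was raised, with 0.520, 1.02 and 0.857 FPKM in exposed samples, against 0.407, 0.207 and 0.241 FPKM in control samples (log2 effect 1.21, SE 0.28, limma, adjusted p = 0.024), a call lost with the number-range block. Vv04s0008g04160 was lowered at EL33 and at EL34, and at EL33 it had 2.53, 3.51 and 4.48 FPKM in exposed samples, against 10.1, 6.89 and 9.17 FPKM in control samples. Its EL33 call was lost in 3 of 11 other settings and in 9 of 23 fits without 1 sample. Its EL34 call was lost in 5 of those settings and in 4 of those fits. Vv13s0064g01660 was lowered at EL34, at 0.0684, 0 and 0 FPKM in exposed samples, against 0.332, 0.291 and 0.102 FPKM in control samples, a call lost with the number-range block.

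At EL38 the largest decreases among the called members were those of Vv01s0026g00570, SHINE 3 and the FAD linked oxidase. Vv01s0026g00570 was listed at 0 in the 3 exposed samples, against 0.842 and 0.298 FPKM in control samples. Increases were called for Vv08s0007g02280, with 0.176, 0.252 and 0.402 FPKM in exposed samples against 0.0408 and 0.0386 FPKM in control samples, and for Vv03s0091g00450, with 2.05, 2.96 and 4.43 FPKM in exposed samples against 1.04 and 1.22 FPKM in control samples (log2 effect 1.34, SE 0.34, limma, adjusted p = 0.03), and both calls were lost with the number-range block. The other 2 genes raised at EL38 were the PAL gene Vv13s0019g04460 and the shikimate 3'-hydroxylase.

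After EL33 the members parted. Between EL33 and EL34 in exposed berries 77 members rose (27.6%) and 71 fell (25.4%), against 21.4% and 21.0% of all genes tested. Between EL34 and EL38, 28 rose (10.04%) and 117 fell (41.9%) in exposed berries, against 25.2% and 29.5% of all genes tested, and 34 rose (12.2%) and 105 fell (37.6%) in control berries, against 21.8% and 23.6%. In both treatments 92 members were called lower at this last step and 22 higher, counts that were not made over all genes tested. The median log2 change from EL34 to EL38 was -0.72 in exposed berries and -0.88 in control berries.

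A passing return at véraison was the course of 58 members, which were called higher at EL34 than at EL33 and lower at EL38 than at EL34 in exposed berries. Another 17 fell at both steps and 7 rose at both. The 58 were 20.8% of the members, and how many of all genes tested took each of these courses was not counted. Few members regained their first level. Averaged over the exposed and control groups, 16 stood at 50% of their exposed EL31 mean or more at EL34 and 17 at EL38, and 13 were above it at 1 of these stages. Members listed at 0 in exposed EL31 berries were not counted.

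The strongest return among genes expressed in exposed EL31 berries was that of Vv12s0057g01060. It had 9.84, 11.2 and 10.2 FPKM in exposed EL31 samples, against 17.8, 19.8 and 21.3 FPKM in control EL31 samples, and was called lower (log2 effect -0.91, SE 0.21, limma, adjusted p = 0.016). At EL34 the order turned, with 8.43, 5.43 and 7.68 FPKM in exposed samples against 2.904, 2.84 and 4.64 FPKM in control samples (log2 effect 1.04, SE 0.21, adjusted p = 0.0083), a call lost with the number-range block. It was the 1 member called in opposite directions at different stages.

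By EL38 Vv12s0057g01060 stood at 281, 240 and 357 FPKM in exposed samples, against 220 and 156 FPKM in control samples, and the difference did not pass the test (adjusted p = 0.14). The rise from EL34 to EL38 was 5.33 log2 units in exposed berries (SE 0.21, limma, adjusted p = 2.4e-12) and 5.74 in control berries. Vv14s0171g00100, the next in this order, had 551, 391 and 599 FPKM in exposed EL38 samples and 434 and 420 FPKM in control EL38 samples, against 2.84, 5.31 and 7.42 FPKM in exposed EL34 samples. TOM22 homolog 2 (Vv05s0049g01870) also ended above its start, with 32.1, 20.8 and 31.8 FPKM in exposed EL38 samples, against 27.7 and 16.1 FPKM in control EL38 samples. Vv16s0098g01120 and Vv09s0002g06190, at 0 in exposed EL31 berries, have no such ratio.

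**Figure D5:**
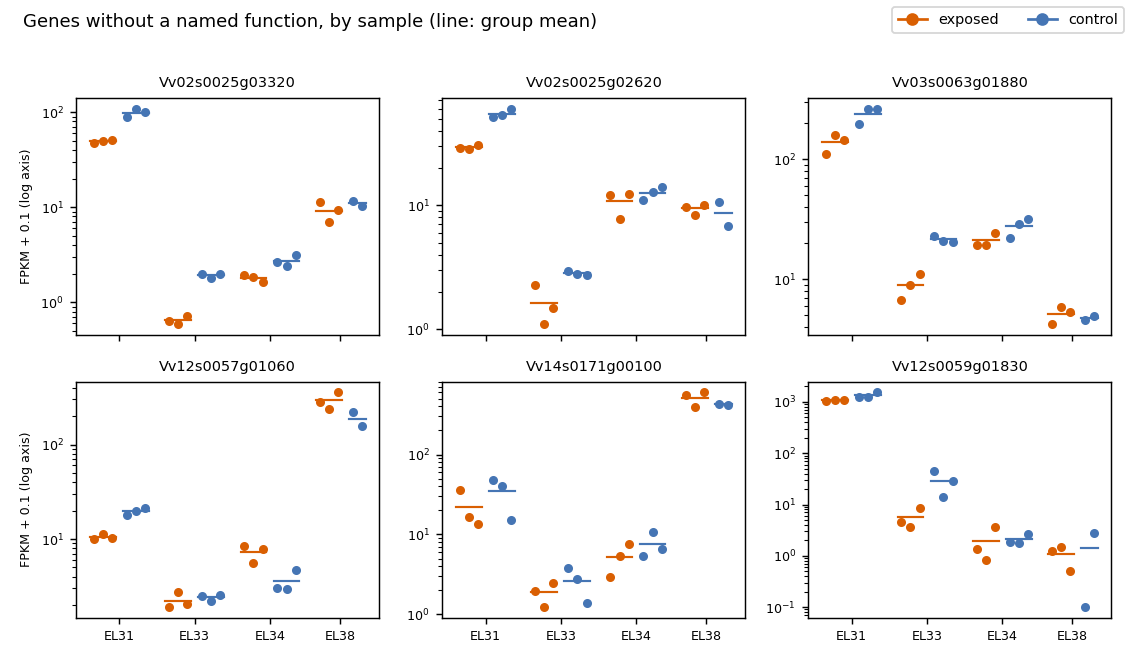
FPKM + 0.1 on a log axis of 6 members without a named function in each sample, with exposed samples left of control samples at each stage and a line at the group mean. Vv02s0025g03320 is lower in exposed samples from EL31 to EL34, and Vv12s0057g01060 and Vv14s0171g00100 are highest at EL38.

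Among members with close identifiers were Vv10s0003g03320, Vv10s0003g03360, Vv10s0003g03410, Vv10s0003g03430 and Vv10s0003g03440, with exposed means of 0.0993 to 0.347 FPKM at EL33, against 4.50 to 9.18 FPKM at EL31. Reads of near-identical genes could have been split between them, which the table cannot show.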

How the data were processed

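RNA-seq of 23 berry samples was analysed. The authors aligned the reads with TopHat2 to version V1 of the grapevine genome and computed the deposited FPKM values, 1 per gene and sample, with Cufflinks (CASAVA 1.8.2 was used for base calling, per the labels). Counts were not used here, so depth is known only as a ratio between samples, from the steps of values under 0.06 FPKM.

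Groups came from the labels. The members were found by the rule in the first paragraph, and log2(FPKM + 0.1) was fitted with limma 3.58.1 in R 4.3.3 (1 mean per group, all 23 samples, eBayes with a trend) for the 20205 genes averaging 1 FPKM or more in any group. P values were adjusted by Benjamini-Hochberg over all genes tested, within each comparison, with 0.05 as threshold. Fold changes on this scale understate the change of low genes. Tables and figures were made in Python 3.11.15 with pandas 2.3.3 and matplotlib 3.10.9. The fit was tested on simulated data.

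The members and the lists were chosen with earlier results of these data known. Genes were named by rule: the 10 highest in exposed EL31 berries, the 3 largest increases and decreases called at each stage, 2 per list, the 3 largest and 3 smallest falls, the 3 genes on each side of each limit and the 3 highest later levels. All other genes with a named function, and those called at 3 stages, at both EL31 and EL33 or in opposite directions, were added after their values were seen, as were Vv14s0171g00100 and the 5 members with close identifiers. Identifiers were matched to the study's gene lists after the prefix. This gave 4654 matched identifiers, and those in the lists without a match were not counted. The study's methods describe the samples of a group as biological replicates, which were separate vine panels. Sequences and coordinates were not used here.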

Additional observations from a re-analysis of the deposited data

Results flagged for a closer look

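For 3 members the exposure effect differed between EL38 and EL34 by limma's test of the difference itself. Of all genes tested, 0.846% were called lower and 0.307% higher in this difference (exposure effect at EL38 minus that at EL34), and the 3 members are 1.08% of the 279. Vv01s0026g00570 had a difference of -2.87 log2 units (SE 0.58, adjusted p = 0.024), with 0 in the 3 exposed EL38 samples against 0.842 and 0.298 FPKM in the 2 control EL38 samples. The alpha-expansin Vv06s0004g07970 had a difference of -2.26 (SE 0.51, adjusted p = 0.04), and the FAD linked oxidase Vv11s0016g02110 one of -1.91 (SE 0.41, adjusted p = 0.03), with 14.5, 12.9 and 12.8 FPKM in exposed EL34 samples against 17.5, 13.998 and 15.9 FPKM in control EL34 samples. Under 11 other settings these calls were lost in 6, 6 and 5, and without 1 sample in turn in 3, 9 and 6 of 23 fits. At EL38 the control group has 2 samples, and the values are 2.18 FPKM or less in both groups.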

How the results depend on the processing

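The fall in exposed berries stayed within 1.5 times its count of 256 under the settings tried, and 258 members at most were called without 1 sample in turn. Quantile normalization moved the median of all genes at that step to 0.10, against -0.07, and the members' median to -3.74. The rule found 619 genes with a limit of 2 log2 units, 132 with 4, 184 with 10 FPKM, 177 with a pseudocount of 1, and 276 to 348 without 1 control sample in turn. Of the exposure calls, 12 at EL31 became 27 with only the samples of the comparison, 30 and 53 with pseudocounts of 0.5 and 1, and 4 at an adjusted p of 0.01. The 24 at EL33 became 1 with only those samples and 9 at 0.01. The 14 at EL34 became 5 with the number-range block, 1 with only those samples, 7 with quantile normalization (6 higher and 1 lower, against 7 and 7) and 3 at 0.01. The 16 at EL38 became 3 with the number-range block, 3 with only those samples (0 of them shared) and 6 at 0.01, and quantile normalization gave 6 higher and 8 lower, against 4 and 12. The 3 differences between EL38 and EL34 became 1 and 0 with pseudocounts of 0.5 and 1 and 0 at 0.01. The causes were not tested. Without 1 sample in turn the counts were 4 to 14 at EL31, 11 to 27 at EL33, 4 to 16 at EL34, 9 to 23 at EL38 and 0 to 5 for the difference, and 137 to 149 and 113 to 143 for EL38 against EL34 in exposed and control berries. At EL31 the count fell to 4 to 6 without any 1 exposed sample or without control replicate 2 or 3. At EL33 it was 11 without control replicate 1 and 15 without control replicate 2 or exposed replicate 1. At EL34 it was 4 without control replicate 2 and 7 without control replicate 3 or exposed replicate 2, and at EL38 it was 9 without control replicate 2, which leaves 1 control sample that is assumed to vary like the other groups. For the difference it was 5 without EL33 exposed replicate 2, 1 without EL34 control replicate 1 or 2 and 0 without EL34 exposed replicate 2. Counting only members with no sample at 0, chosen after seeing the data, gave 80 and 90 calls for EL38 against EL34 in exposed and control berries, against 145 and 139. Of the named genes' called values, none changed sign. With the replicate block 255 members were called in the fall, and 14, 23, 13 and 11 members were called at the 4 stages. Deviations of exposed and control samples with the same replicate number correlated at -0.03 to 0.15, and 9 of 18 samples correlated best with their own number. The labels do not say that these numbers match vine panels, so this cannot show whether samples were paired. The replicate block also ended the EL34 and EL38 calls of the PAL gene Vv13s0019g04460 and the EL38 calls of Vv14s0108g01020, Vv08s0007g02280 and Vv03s0091g00450.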
